A study of Mus musculus with 6 samples.

Results

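The fibroblast growth factor (FGF) receptors, ligands and feedback genes described here are 10 genes chosen by pathway and not by their values, the receptors *Fgfr1*, *Fgfr2*, *Fgfr3* and *Fgfr4*, the ligands *Fgf2* and *Fgf18*, and the feedback inhibitors *Spry1*, *Spry2*, *Spry4* and *Dusp6*. Each was found by its symbol among the 23159 genes of the count table, and all 10 were among the 13728 genes that passed the filter on low counts. Label-retaining chondrocytes (LRCs), the slowly dividing cells that keep a pulse of histone 2B-linked green fluorescence, were compared with their non-label-retaining counterparts (non-LRCs), whose label division had diluted. RNA was sequenced from 3 independent experiments, each giving 1 LRC and 1 non-LRC library, and the experiments were *n*=3 per group. All libraries came from Col2-Q mice killed at postnatal day (P) 49. These mice were homozygous for Peli2(Col2a1-tTA), Col1a1(TRE-H2B-GFP), Col2a1-creER and R26R(tdTomato). Both groups therefore carried every allele, had doxycycline from P21 to P49 to stop production of the histone label, and had tamoxifen at P46 and P47 to turn on tdTomato.

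The *Col2a1* promoter drove both the transactivator of the label and the tamoxifen-dependent recombinase that turns on tdTomato. As a limit of the model, the study describes weak H2B-EGFP in bone cells that lack the transactivator. Cells were released by collagenase from dissected epiphyses of the distal femur and proximal tibia and pooled from littermates. In this dissection the growth plate broke at its hypertrophic layer, and the paper describes the articular surface as largely undigested. The sort kept CD45-negative, tdTomato+ cells with the brightest (LRC) or an intermediate to low (non-LRC) nuclear label. The labels give about 10000 cells for an LRC library and about 50000 for a non-LRC library. Total counts were between 18943789 and 129559872 per library. The smallest was the LRC library of experiment 2, which had 1731 of the tested genes at 0, against 4 to 365 in the other libraries. Fits without experiment 2 are also given for members whose value they moved. A count of 0 allowed between 0.0257 and 0.143 CPM (counts per 1000000 counts, scaled by edgeR's TMM method), which is the worth of 3 counts and covers counting error only.

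FGFs are secreted proteins that bind receptor tyrosine kinases together with heparan sulfate, and the activated receptors signal through the adaptor FRS2, Ras and the kinase ERK. Sprouty proteins and the phosphatase DUSP6 are made in response to this pathway and dampen it, so their transcripts are widely used as a readout of it. In the growth plate, FGFR3 restrains chondrocyte proliferation and bone elongation, and overactive FGFR3 causes achondroplasia.

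In LRCs, the *Fgfr1* and *Fgfr2* transcripts were about 1.91 and 2.06 times their non-LRC levels in the paired fit, *Dusp6* was 2.00 times and *Spry1* 7.98 times, whereas *Fgfr3* was 1.59 times higher in non-LRCs. *Fgf2* and *Spry4* were 1.13 and 1.33 times higher in LRCs in that fit, *Spry2* 1.11 times higher and *Fgfr4* 1.29 times lower, and *Fgf18* went in different directions in different experiments. None of these differences passed an adjusted p of 0.05 in edgeR's quasi-likelihood test with the experiment as a block (0 of 10 members, against 1.28% of all genes tested, 0.903% being higher and 0.379% lower in LRCs). At an unadjusted p below 0.05, 5 of the 10 members differed, *Fgfr1*, *Fgfr2*, *Spry1* and *Dusp6* being higher and *Fgfr3* lower in LRCs, against 18.4% of all genes tested (8.89% higher and 9.53% lower). DESeq2 with the same block, the tool of the paper's own paired model, called these 5 genes (5 of 10, against 12.3% of the genes it gave an adjusted p). Its adjusted p was 1.9e-06 for *Fgfr1*, 8.6e-07 for *Fgfr2*, 4.0e-05 for *Spry1*, 0.0030 for *Dusp6* and 0.0157 for *Fgfr3*. With limma-voom, they and *Fgf18* were called (6 of 10, against 9.91%). The call of these members thus depended on the tool, while each had the same direction in the 3 tools. *Fgfr1*, *Spry1* and *Dusp6* were higher in every LRC library than in any non-LRC library (3 of 10, against 8.41% of all genes tested), and 0 members were lower in every LRC library than in any non-LRC library (against 10.3%). Because these are bulk libraries, fewer cells of a type and less RNA per cell cannot be told apart in any of these differences.

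**Figure D1:**
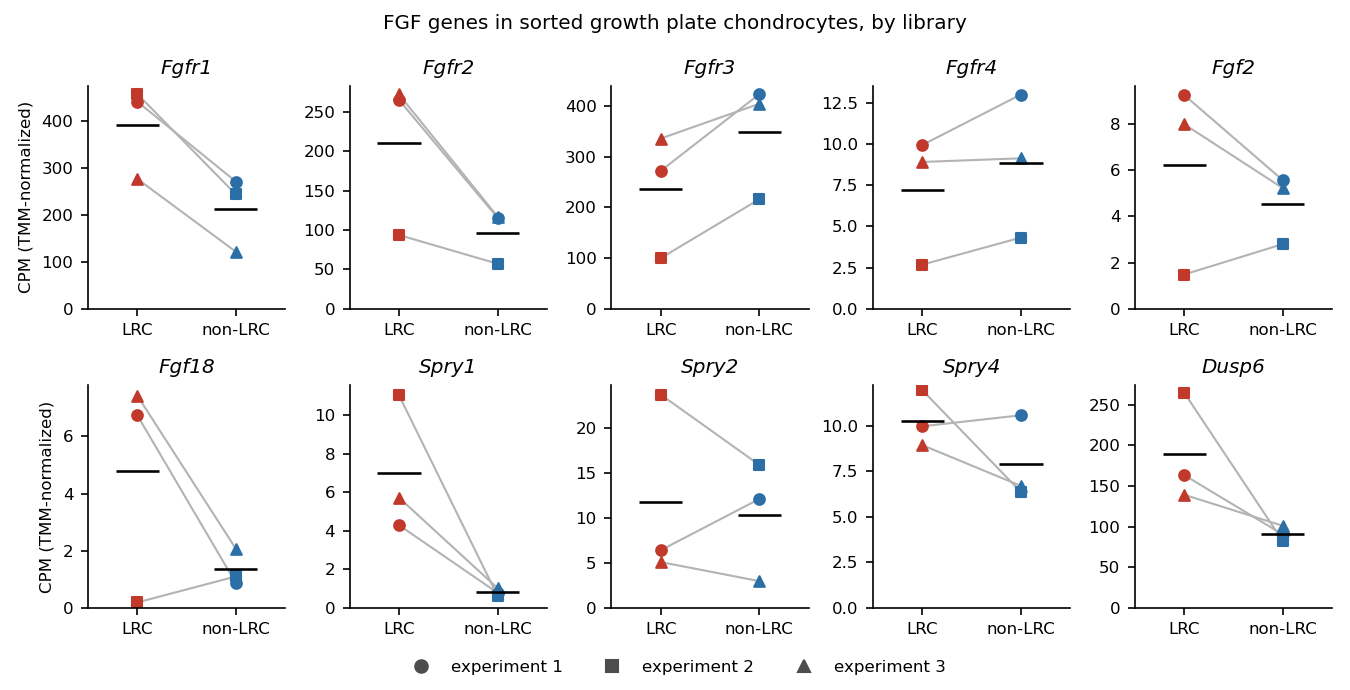
Level of each of the 10 FGF genes in every library, in TMM-normalized CPM on a linear axis from 0 (scales differ between panels), with red for LRCs, blue for non-LRCs, a symbol for each experiment, a grey line joining the libraries of an experiment and a black bar at the group mean (*n*=3). *Fgfr1*, *Spry1* and *Dusp6* show no overlap between groups, and the LRC library of experiment 2 (square) is the lowest LRC library for *Fgfr2*, *Fgfr3*, *Fgfr4*, *Fgf2* and *Fgf18* and the highest for *Fgfr1*, *Spry1*, *Spry2*, *Spry4* and *Dusp6*.

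The promoters of the members whose levels differed at an unadjusted p below 0.05 are shown so that the genes behind the results can be seen as sequence. Each window covers 250 bases before to 50 bases after a transcription start in RefSeq on GRCm38.p6, 5′ to 3′ on the strand of the gene, with GC boxes (GGGCGG on either strand) in capitals. Of the 10 members, 8 had a window, and *Fgfr1* and *Spry4* had no entry in the table used here. *Fgfr2* (chr7:130266759-130267058, minus strand), *Fgfr3* at 2 start sites (chr5:33721474-33721773 and chr5:33722056-33722355, plus strand), *Spry1* (chr3:37639697-37639996, plus strand) and *Dusp6* (chr10:99262981-99263280, plus strand) read as follows.
Fgfr2: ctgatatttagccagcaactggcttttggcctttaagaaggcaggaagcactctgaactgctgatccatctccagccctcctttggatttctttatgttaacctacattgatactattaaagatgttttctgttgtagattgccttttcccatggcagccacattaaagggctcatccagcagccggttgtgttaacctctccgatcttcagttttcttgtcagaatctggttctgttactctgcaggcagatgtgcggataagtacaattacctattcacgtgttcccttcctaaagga
Fgfr3 first start: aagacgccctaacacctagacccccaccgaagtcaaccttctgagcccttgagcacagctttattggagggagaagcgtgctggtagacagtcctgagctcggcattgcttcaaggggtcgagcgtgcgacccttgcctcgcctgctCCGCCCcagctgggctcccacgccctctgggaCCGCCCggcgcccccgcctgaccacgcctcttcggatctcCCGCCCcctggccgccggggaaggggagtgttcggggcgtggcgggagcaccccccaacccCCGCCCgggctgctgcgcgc
Fgfr3 second start: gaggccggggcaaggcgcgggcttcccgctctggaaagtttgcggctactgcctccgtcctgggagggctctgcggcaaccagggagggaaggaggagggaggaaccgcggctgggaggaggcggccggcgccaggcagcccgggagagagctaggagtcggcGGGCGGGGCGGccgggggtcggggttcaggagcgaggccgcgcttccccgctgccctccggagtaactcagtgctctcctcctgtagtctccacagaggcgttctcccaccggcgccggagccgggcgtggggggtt
Spry1: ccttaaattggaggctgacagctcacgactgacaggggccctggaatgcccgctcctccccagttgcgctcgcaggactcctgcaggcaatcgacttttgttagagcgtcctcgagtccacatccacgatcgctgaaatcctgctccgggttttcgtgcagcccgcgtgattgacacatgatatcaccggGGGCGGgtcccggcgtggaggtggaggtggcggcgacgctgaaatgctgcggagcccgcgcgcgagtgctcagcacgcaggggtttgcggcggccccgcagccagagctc
Dusp6: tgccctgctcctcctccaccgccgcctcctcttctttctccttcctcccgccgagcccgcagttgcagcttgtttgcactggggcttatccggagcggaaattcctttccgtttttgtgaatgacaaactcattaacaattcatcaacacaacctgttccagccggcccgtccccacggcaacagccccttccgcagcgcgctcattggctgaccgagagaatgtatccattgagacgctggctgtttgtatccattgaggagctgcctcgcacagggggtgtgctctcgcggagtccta

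The windows differed in base composition. The *Fgfr3* windows were 69.7% and 73.0% G or C with 26 and 30 CpG dinucleotides, the *Spry1* window was 64.3% with 29 and the *Dusp6* window 57.3% with 19. The *Fgfr2* window was 43.7% G or C with 4 CpG dinucleotides, below the median of 52.7% for all 32851 RefSeq promoter windows. GC boxes numbered 4 and 2 in the *Fgfr3* windows, the second pair overlapping, and 1 in the *Spry1* window, and 35.7% of all windows held at least 1. Neither CCGGAA, a core that ETS factors bind (14.9% of all windows), nor TGANTCA, an AP-1 core (7.8%), occurred on either strand of these 5 windows, which says only that these letters are not there.

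Among the receptors, *Fgfr1* (chromosome 8, 25518759 to 25575718, RefSeq on GRCm38.p6) encodes the receptor that in cartilage is best known from hypertrophic chondrocytes and the perichondrium. Its level in LRCs was 440.2, 457 and 276 CPM in experiments 1, 2 and 3. In non-LRCs it was 270.4, 243 and 121 CPM. The lowest LRC library, that of experiment 3, stood only just above the highest non-LRC library, that of experiment 1, but within each experiment LRCs were higher, by 0.70, 0.91 and 1.19 on the log2 scale. The LRC mean was 391 ± 99.9 CPM (s.d., *n*=3) and the non-LRC mean 211.5 ± 79.4 CPM. The fitted log2 fold change was 0.93 with a standard error of 0.15 (adjusted p = 0.0571, edgeR).

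*Fgfr2* (chromosome 7, 130162451 to 130266808) encodes a receptor expressed in skeletal progenitors and the perichondrium. It stood at 265, 93.6 and 272 CPM in the LRC libraries and at 116, 57.2 and 117 CPM in the non-LRC libraries. Experiments 1 and 3 were nearly the same in both groups, and experiment 2 was lower in both, so that its LRC library lay below the non-LRC libraries of the other experiments and the groups overlapped. Within the experiments the log2 differences were 1.20, 0.71 and 1.22. The fitted log2 fold change was 1.04 with a standard error of 0.16, and its adjusted p of 0.0517 in edgeR was the smallest among the members. Without experiment 2, the fitted value was 1.21 and the adjusted p 0.0141 in edgeR.

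*Fgfr3* (chromosome 5, 33721724 to 33737068), the receptor of proliferating and prehypertrophic chondrocytes, went the other way. The LRC libraries had 272, 99.7 and 336 CPM and the non-LRC libraries 423, 216 and 404 CPM. As for *Fgfr2*, experiment 2 was the lowest in both groups and the groups overlapped, while LRCs were lower within each experiment, by 0.64, 1.11 and 0.27 on the log2 scale. The fitted log2 fold change was -0.67 with a standard error of 0.19 (adjusted p = 0.151, edgeR). DESeq2 gave it an adjusted p of 0.0157 and limma-voom one of 0.0369. Without experiment 2 the fitted value was -0.45, with an adjusted p of 0.151 in edgeR.

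*Fgfr4* (chromosome 13, 55152818 to 55168759), best known from liver and muscle, was far less abundant than the other receptors, also per kilobase of exon. LRC libraries had 9.95, 2.68 and 8.91 CPM and non-LRC libraries 13.01, 4.32 and 9.14 CPM. It was lower in the LRC library of each experiment, by 0.39, 0.68 and 0.04 on the log2 scale, but its fitted log2 fold change of -0.37 had a standard error of 0.34 (adjusted p = 0.621, edgeR), and the groups overlapped. Without experiment 2 that value was -0.21 (adjusted p = 0.646, edgeR). *Fgfr3* and *Fgfr4* were thus the members that were lower in LRCs in all 3 experiments (2 of 10, against 26% of all genes tested). *Fgfr1*, *Fgfr2*, *Spry1* and *Dusp6* were those that were higher in all 3 (4 of 10, against 20.4%).

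**Figure D2:**
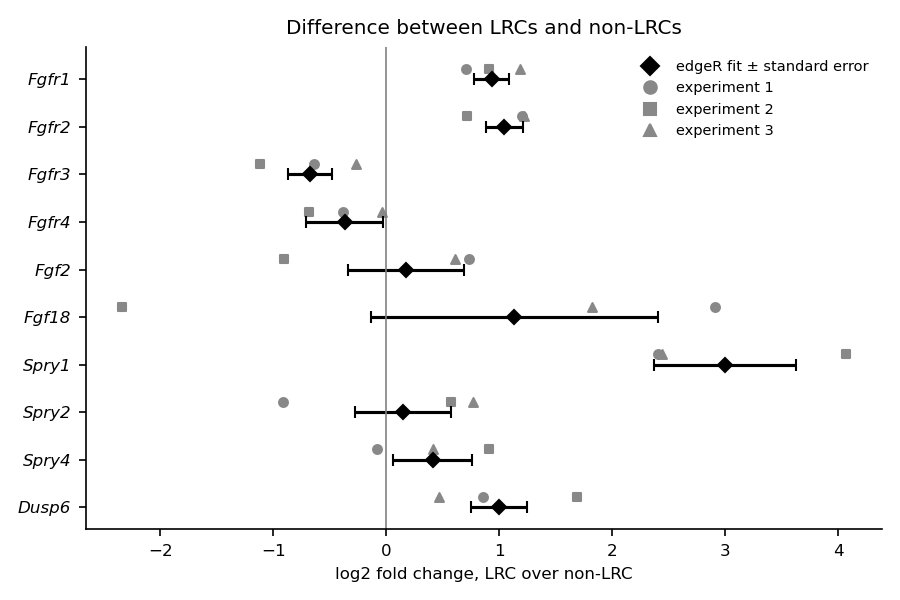
Difference between LRCs and non-LRCs for each FGF gene, on a log2 scale with values above 0 higher in LRCs, where the diamond and bar give the edgeR fit with the experiment as a block ± its standard error and the grey symbols give the difference in log2 CPM within each experiment. The grey symbols of *Fgfr1*, *Fgfr2*, *Spry1* and *Dusp6* all lie above 0 and those of *Fgfr3* and *Fgfr4* below 0, while *Fgf18* runs from -2.34 to 2.91.

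The receptors were also set against each other within each library, as CPM per kilobase of exon, so that scaling between libraries plays no part. These ratios combine the differences of *Fgfr1*, *Fgfr2* and *Fgfr3* given above and are a description of them, not independent support. The log2 ratio of *Fgfr1* to *Fgfr3* was 0.23, 1.73 and -0.75 in the LRC libraries and -1.11, -0.29 and -2.20 in the non-LRC libraries. The groups overlapped, but the ratio was higher in the LRC library of every experiment, by 1.34, 2.02 and 1.46. The mean of these differences was 1.61 ± 0.37 (s.d., *n*=3), a 3.05-fold shift. The ratio of *Fgfr2* to *Fgfr3* separated the groups with little spread within them. On the log2 scale it was -0.56, -0.62 and -0.83 in LRCs and -2.40, -2.45 and -2.32 in non-LRCs, with a mean difference of 1.72 ± 0.20 (s.d., *n*=3), or 3.29-fold. The libraries of experiment 2, which were the lowest for both genes, therefore did not stand apart in this ratio. An exact two-sided permutation test over the 3 pairs gave p = 0.25 for each ratio, which is the smallest p that 3 pairs allow, so the test cannot pass 0.05 and says nothing for or against a difference.

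Of the sum of the 4 receptors per kilobase, *Fgfr3* was 58.3%, 49.0% and 68.3% in the non-LRC libraries and 34.2%, 19.9% and 45.2% in the LRC libraries. It was the most abundant receptor in each non-LRC library. In LRCs, *Fgfr1* led in experiments 1 and 2, with 40.1% and 66.1%, and *Fgfr3* in experiment 3, where *Fgfr1* made up 27.0%. *Fgfr2* made up 23.1%, 12.95% and 25.4% in LRCs and 11.0%, 8.999% and 13.7% in non-LRCs, and *Fgfr4* at most 3.63% in any library. The sum itself was 111, 70.0 and 104 CPM per kilobase in LRCs and 101, 61.5 and 82.6 in non-LRCs. It was higher in LRCs in each experiment, with means of 94.9 ± 21.9 and 81.8 ± 19.9 (s.d., *n*=3). These s.d. are spreads between experiments and do not measure the spread of the paired differences. The difference in the sum was not tested. These shares rest on the total exon length of each gene in GENCODE vM21, which for *Fgfr2* includes exons shared with *Ctbp2*. The shares and the sum change with the lengths used, whereas the difference between groups in a log2 ratio does not.

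**Figure D3:**
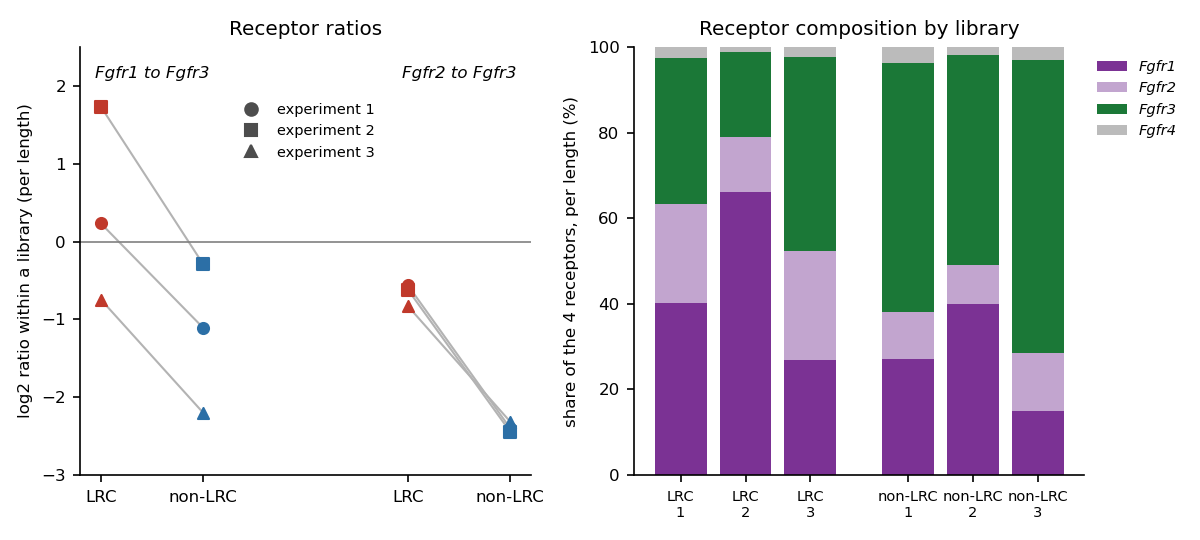
Left, log2 ratio of *Fgfr1* or *Fgfr2* to *Fgfr3* within each library, per kilobase of exon, with a symbol and a line for each experiment (red, LRC; blue, non-LRC). Right, share of each receptor in the summed receptor level per kilobase, in percent, for each of the 6 libraries. *Fgfr3* takes 49.0% to 68.3% of the sum in non-LRCs and 19.9% to 45.2% in LRCs.

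Among the feedback inhibitors, *Spry1* (chromosome 3, 37639947 to 37644599) showed the widest gap. It had 502, 231 and 246 counts in LRCs and 81, 24 and 51 in non-LRCs, or 4.30, 11.0 and 5.72 CPM against 0.784, 0.628 and 1.03 CPM. The groups did not overlap. Within the experiments the log2 differences were 2.41, 4.07 and 2.44, with the LRC library of experiment 2 the highest. The fitted log2 fold change was 3.00 with a standard error of 0.63 (adjusted p = 0.0834, edgeR), and it was 2.47 without experiment 2 (adjusted p = 0.0235, edgeR).

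*Dusp6* (chromosome 10, 99263231 to 99267489), the ERK-specific phosphatase, was the most abundant feedback gene per kilobase of exon in both groups. It had 163, 265 and 139 CPM in LRCs and 90.4, 82.3 and 101 CPM in non-LRCs. The non-LRC libraries lay close together (91.3 ± 9.37 CPM, s.d., *n*=3), and the LRC libraries lay above them and were more spread (189 ± 66.6 CPM). The log2 differences were 0.85, 1.68 and 0.46, and the fitted log2 fold change was 0.998 with a standard error of 0.25 (adjusted p = 0.117, edgeR). That value came to 0.66 without experiment 2 (adjusted p = 0.0713, edgeR) and to 1.29 without experiment 3 (adjusted p = 0.0295).

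The other Sprouty genes did not follow *Spry1*. *Spry2* (chromosome 14, 105891947 to 105896819) had 6.41, 23.7 and 5.10 CPM in LRCs and 12.1, 15.9 and 2.98 CPM in non-LRCs. It was lower in the LRC library of experiment 1 and higher in those of experiments 2 and 3, and its fitted log2 fold change was 0.15 with a standard error of 0.42 (adjusted p = 0.880, edgeR). The sign of that value turned in limma-voom and without experiment 2 or experiment 3. *Spry4* stood at 9.98, 11.9 and 8.94 CPM in LRCs and at 10.6, 6.36 and 6.70 CPM in non-LRCs, with a fitted log2 fold change of 0.41 and a standard error of 0.35 (adjusted p = 0.584, edgeR). *Spry4* was slightly lower in the LRC library of experiment 1 (-0.08 on the log2 scale) and higher in those of experiments 2 and 3. Its levels overlapped between groups, and without experiment 2 the fitted value was 0.16 (adjusted p = 0.758, edgeR). Per kilobase of exon, *Spry1* made up 22.2%, 21.5% and 31.3% of the 3 Sprouty transcripts in LRCs and 3.25%, 2.36% and 11.1% in non-LRCs. *Spry2* was the most abundant Sprouty in every library, at 38.8% to 64.3% in LRCs and 44.7% to 83.0% in non-LRCs.

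Both ligands were scarce. *Fgf2* (chromosome 3, 37348477 to 37410106), a ligand stored in the cartilage matrix, had 1083, 31 and 344 counts in LRCs and 576, 107 and 260 in non-LRCs. That is 9.27, 1.48 and 8.01 CPM against 5.58, 2.80 and 5.23 CPM. LRCs were higher in experiments 1 and 3 and lower in experiment 2, and the fitted log2 fold change was 0.17 with a standard error of 0.52 (adjusted p = 0.886, edgeR). Without experiment 2 it was 0.67 (adjusted p = 0.170, edgeR).

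*Fgf18* (chromosome 11, 33116970 to 33147400), a ligand of FGFR3 made in and around developing cartilage, had 787, 4 and 319 counts in LRCs and 90, 42 and 103 in non-LRCs. Its CPM were 6.74, 0.191 and 7.42 in LRCs and 0.871, 1.10 and 2.07 in non-LRCs. The LRC libraries of experiments 1 and 3 were thus the highest of all and that of experiment 2 the lowest. The fitted log2 fold change was 1.13 with a standard error of 1.27 (adjusted p = 0.687, edgeR). This value rests on single experiments, since without experiment 2 it was 2.40 (adjusted p = 0.0273, edgeR), and without experiment 1 it was -0.20 (adjusted p = 0.976, edgeR).

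The members were ordered by level per kilobase of exon. In LRCs the order was *Dusp6* (60.4 CPM per kilobase), *Fgfr1* (39.6), *Fgfr3* (32.9), *Fgfr2* (20.4), *Spry2* (5.62), *Fgf18* (4.03), *Spry1* (2.42), *Spry4* (2.16), *Fgfr4* (2.03) and *Fgf2* (0.922). Each of these genes overlapped with its neighbour in the order when the 3 LRC libraries were compared. In non-LRCs *Fgfr3* came first (48.6 CPM per kilobase), before *Dusp6* (29.1), *Fgfr1* (21.4), *Fgfr2* (9.36), *Spry2* (4.95), *Fgfr4* (2.49), *Spry4* (1.66), *Fgf18* (1.14), *Fgf2* (0.669) and *Spry1* (0.280). There, *Fgfr1* and *Fgfr2* did not overlap, nor did *Fgf2* and *Spry1*, and all other neighbours did. *Spry1* was thus the least abundant member in non-LRCs and ranked 7 of 10 in LRCs.

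The counts of several members could have gained or lost reads where their exons overlap those of other genes. Only unambiguous reads were counted, but the gene annotation and strand setting of the counting are not given in the sources used here. On the opposite strand, *Fgfr3* shares 998 exonic bases with *G630022F23Rik*, *Spry1* 710 with *Gm42922*, *Fgf2* 640 with *Nudt6* and *Fgfr1* 164 with *Gm16159* in GENCODE vM21. On its own strand, *Fgfr2* shares 314 with *Ctbp2* and *Fgf2* 255 with *Gm43439*.

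Of 60 other genes of the pathway, listed by role, 44 were tested. They split into 26 that were higher and 18 that were lower in LRCs, and their median difference was 0.14 on the log2 scale, against -0.097 for all genes tested. In edgeR, 0 of the 44 had an adjusted p below 0.05 (against 1.28% of all genes tested) and 3 an unadjusted p below 0.05 (against 18.4%), while DESeq2 called 3 (against 12.3%) and limma-voom 1 (against 9.91%). These counts were lower than such shares of 44 genes would give at an unadjusted p and with either other tool. Of the 44, *Etv1*, *Shc1*, *Grb2*, *Plcg1* and *Fgfbp3* were higher in every LRC library than in any non-LRC library (against 8.41% of all genes tested). For *Plcg1* the gap was only that between 21.06 and 20.93 CPM, the LRC and non-LRC libraries of experiment 3. *Fgf21* and *Flrt2* were lower in every LRC library than in any non-LRC library (against 10.3%), with 2 and 0 counts in the small LRC library of experiment 2.

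Among the transcription factors that ERK signalling induces, *Etv1* had 3.17, 5.31 and 4.68 CPM in LRCs and 1.18, 0.497 and 1.09 CPM in non-LRCs. Every LRC library was higher than every non-LRC library. The fitted log2 fold change was 2.29 with a standard error of 0.72 (adjusted p = 0.178, edgeR). The related *Etv5* stood at 88.8, 29.1 and 61.8 CPM against 33.5, 27.9 and 24.9 CPM, and its groups overlapped because the LRC library of experiment 2 was close to its non-LRC partner (fitted difference 0.94 ± 0.31 standard error on the log2 scale, adjusted p = 0.188, edgeR). Without experiment 2, *Etv5* had an adjusted p of 0.0119 in edgeR. Of the 11 tested genes in this list of feedback and ETS response genes, 7 were higher and 4 lower in LRCs (median 0.18).

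The adaptors and Ras-ERK components, all 20 of which were tested, split into 12 higher and 8 lower with a median of 0.088. *Shc1*, an adaptor that links receptors to Ras, was at 179, 133 and 137 CPM in LRCs and 121, 91.1 and 107 CPM in non-LRCs. Its LRC libraries all stood above its non-LRC libraries (0.49 ± 0.14 standard error on the log2 scale, adjusted p = 0.145, edgeR). *Grb2*, its partner adaptor, lay at 67.1, 68.6 and 69.3 CPM against 50.2, 59.9 and 52.3 CPM, again with no overlap, and its log2 fold change was 0.34 with a standard error of 0.15 (adjusted p = 0.306, edgeR).

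Of the co-receptors and binding proteins, 7 of 8 were tested, 4 higher and 3 lower (median 0.24). *Flrt3*, a membrane protein that binds FGF receptors, was lower in LRCs in each experiment (-0.34 ± 0.16 standard error on the log2 scale, adjusted p = 0.336, edgeR). *Fgfbp3*, a secreted carrier of FGFs, was higher in each (1.79 ± 0.86, adjusted p = 0.341, edgeR). Of 16 other ligands, 5 passed the filter on low counts, with 3 higher and 2 lower, and *Fgf4*, *Fgf6* and *Fgf8* had 0 counts in every library. *Fgf1*, the one of these with the most counts, had 22.7, 4.68 and 21.1 CPM in LRCs and 19.4, 17.9 and 31.5 CPM in non-LRCs, a fitted difference of -0.74 ± 0.43 (standard error, log2 scale, adjusted p = 0.428, edgeR). *Fgf7*, a ligand of FGFR2 from connective tissue, had 76, 1 and 49 counts in LRCs and 5, 1 and 12 in non-LRCs (adjusted p = 0.429, edgeR). Of the 4 intracellular FGF homologous factors only *Fgf13* was tested, with a log2 fold change of -0.27 (adjusted p = 0.951, edgeR).

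**Figure D4:**
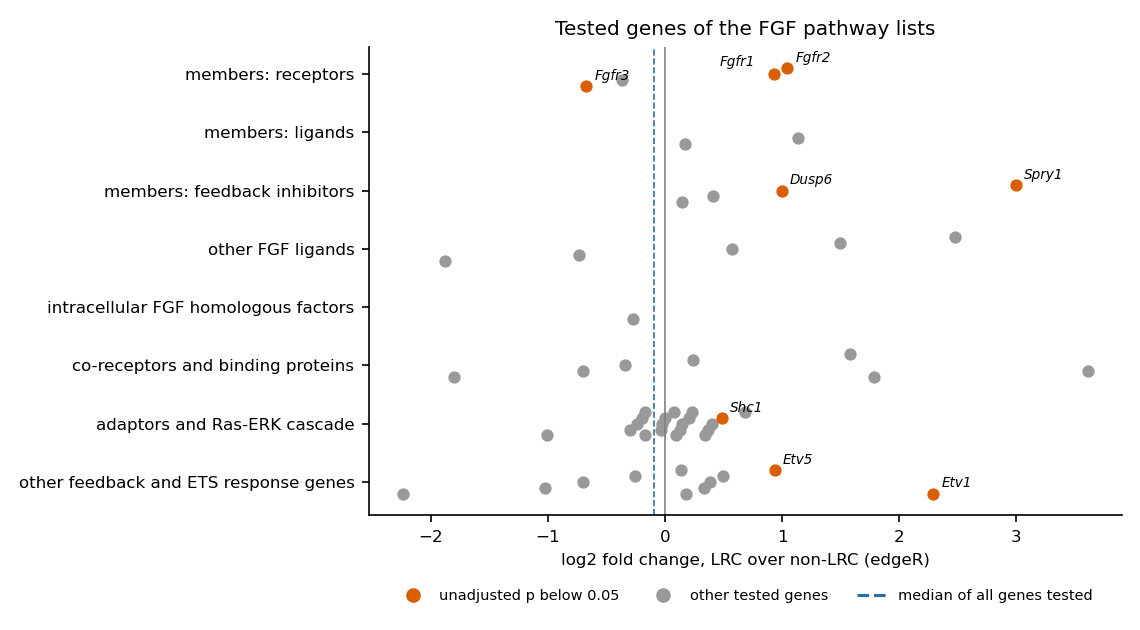
Log2 fold change between LRCs and non-LRCs (edgeR) of each tested gene of the FGF lists, 1 point per gene, spread vertically only so that points can be told apart. Orange points have an unadjusted p below 0.05 and are named, the dashed line is the median of all genes tested (-0.097), and no point has an adjusted p below 0.05.

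Genes whose levels most resembled those of a receptor were looked for among 7819 genes with a mean of at least 10 CPM, by Pearson's r of log2 CPM over the 6 libraries, as a description only, since these libraries share depth and experiment. For *Fgfr1* these were *Epas1* (r = 0.998), *Rnf10* (0.992), *Kif21a* (0.990), *Tmbim1* (0.988) and *Tjap1* (0.987). For *Fgfr2* they were *Mafk* (0.999), *Hsd17b7* (0.994), *Ccdc82* (0.992), *Gprasp1* (0.991) and *Pros1* (0.989). For *Fgfr3* they were *Trmt2a* (0.998), *Atp10d* (0.997), *Fkbp9* (0.996), *Sec16b* (0.993) and *Tm9sf1* (0.992).

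The cell type was checked with marker lists. All 10 growth plate chondrocyte markers were tested, with a summed level of 85525 to 228613 CPM in LRCs and 141074 to 236374 CPM in non-LRCs. They moved with the groups, as 9 of 10 were lower in LRCs, 8 of them in all 3 experiments, with a median of -0.49 on the log2 scale (0 called, 5 with an unadjusted p below 0.05 in edgeR, all lower). The 6 hypertrophic markers all had fitted values below 0 (median -0.75 on the log2 scale, 0 called), with sums of 817 to 1953 CPM against 842 to 2478 CPM. Only 3 of them were lower in LRCs in all 3 experiments, *Col10a1* (-2.95), *Ihh* (-5.35) and *Alpl* (-0.93). *Ihh* was scarce, with 0, 0 and 47 counts in LRCs and 96, 43 and 420 in non-LRCs. *Mmp13* and *Ibsp* were higher in LRCs in experiment 1. *Spp1* did not differ (-0.0035) and was slightly higher in LRCs in experiments 2 and 3. Superficial articular and synovial markers moved with the groups, as 4 of 4 were higher in LRCs, 3 of them past an adjusted p of 0.05 in edgeR (*Prg4*, *Clu* and *Thbs4*), and their sum was 1137 to 2104 CPM in LRCs and 71.0 to 135 CPM in non-LRCs. The other marker, *Htra4*, had 5435, 0 and 2157 counts in LRCs and 315, 31 and 91 in non-LRCs. By in situ hybridization, the paper also found *Prg4* in the growth plate resting zone, much weaker than at the articular surface. It attributes essentially all released tdTomato+ cells to the growth plate. Of 5 tested perichondrial and fibrous markers, 4 were higher (median 0.78, 0 called), with sums of 217 to 771 CPM against 164 to 324 CPM, and the perichondrial gene *Postn* had 0 counts in every LRC library. Of 6 tested osteoblast and osteocyte markers, 3 were higher and 1, *Col1a1*, passed an adjusted p of 0.05 (log2 fold change 2.38, adjusted p = 0.0151, edgeR), with sums of 1374 to 3120 CPM against 914 to 2113 CPM. Of the osteocyte genes, *Sost* was at 0 in every library, whereas *Dmp1* had 444, 66 and 271 counts in LRCs and 0, 70 and 77 in non-LRCs. *Dmp1* was higher in CPM in every LRC library than in any non-LRC library (adjusted p = 0.440, edgeR), as were 8.41% of all genes tested. The 3 lower bone markers were *Bglap*, *Bglap2* and *Phex*, at -1.14, -1.48 and -0.89 on the log2 scale (adjusted p = 0.117, 0.116 and 0.570, edgeR). *Bglap* and *Bglap2* were lower in LRCs in all 3 experiments. Of 5 endothelial markers, *Cdh5*, *Kdr* and *Emcn* were at 0 in every library, *Tie1* had at most 19 counts and *Pecam1* had 43, 12 and 0 counts in LRCs and 8, 26 and 12 in non-LRCs, and their sum was at most 0.574 and 1.18 CPM in LRCs and non-LRCs. Of 6 leukocyte and erythroid markers, *Hba-a1* was at 0 in every library, *Ptprc* had 10 counts in 1 library and 0 in the others, and the macrophage gene *Cd68* was present in all 6, at 6.17, 23.0 and 6.52 CPM in LRCs and 6.73, 10.7 and 4.71 CPM in non-LRCs. The erythroid gene *Hbb-bs*, counted under the symbol *Beta-s*, had 80, 56 and 127 counts in LRCs and 368, 320 and 394 in non-LRCs. Its log2 fold change was -1.81 (adjusted p = 0.139, edgeR). It was lower in every LRC library than in any non-LRC library, as were 10.3% of all genes tested. Muscle markers summed to at most 10.4 and 14.0 CPM in LRCs and non-LRCs, and the leukocyte and erythroid markers to at most 25.7 and 20.4 CPM. The part of these cell types in the differences of the FGF genes was not tested.

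**Figure D5:**
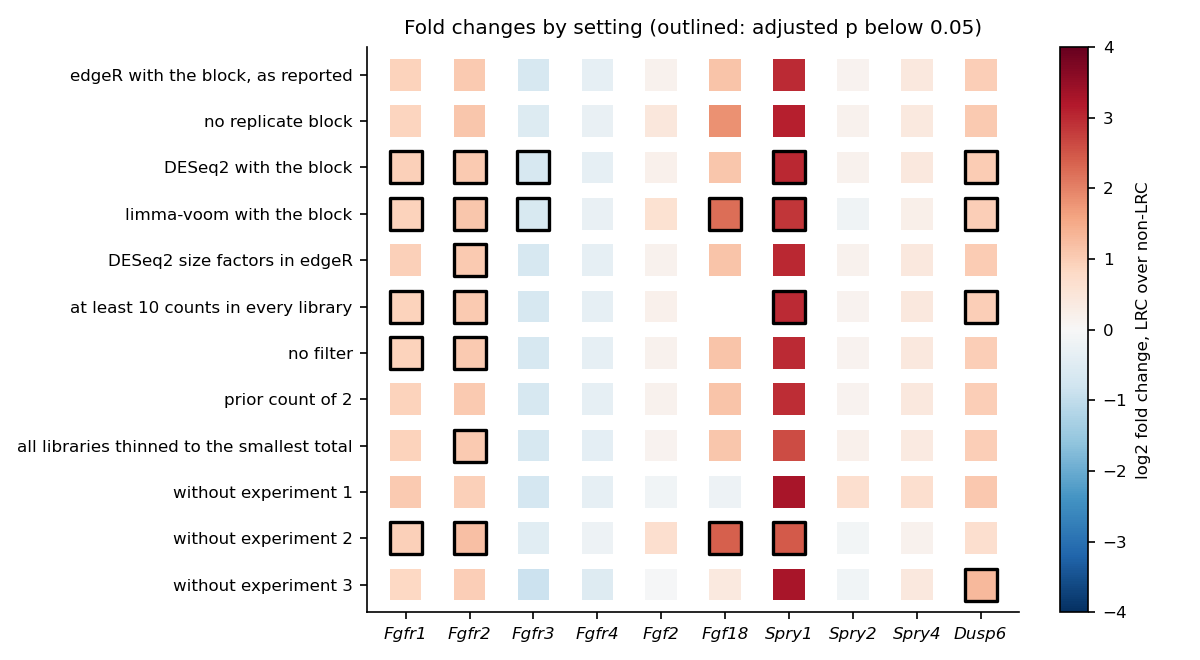
Fitted log2 fold change of each FGF gene under each setting (rows), colored red where higher and blue where lower in LRCs, with a black outline where the adjusted p is below 0.05 in that setting. *Fgfr1*, *Fgfr2*, *Spry1* and *Dusp6* are red and *Fgfr3* and *Fgfr4* blue in all 12 settings, and *Fgf18* was not tested with at least 10 counts in every library. No gene is outlined in the reported edgeR fit, without the block, with a prior count of 2 or without experiment 1.

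The settings that made a call are plotted for all members, and all of these settings also raised the share of all genes called. With at least 10 counts required in every library, edgeR called *Fgfr1*, *Fgfr2*, *Spry1* and *Dusp6*, with adjusted p of 0.0149, 0.0108, 0.0184 and 0.0472 (4 of 9 members tested, against 6.75% of all genes tested). Without experiment 2, it called *Fgfr1*, *Fgfr2*, *Fgf18* and *Spry1* (4 of 10, against 5.37%), without experiment 3 only *Dusp6* (1 of 10, against 1.59%) and without experiment 1 none (0 of 10, against 0.254%). It called *Fgfr1* and *Fgfr2* with no filter (2 of 10, against 1.44%), and *Fgfr2* alone with DESeq2 size factors (1 of 10, against 1.46%) and with all libraries thinned to the smallest total (1 of 10, against 1.67%). With no block it called 0 of 10 members, against 0.00728% of all genes, and with a prior count of 2 again 0 of 10, against 1.28%. The fold changes of *Fgfr1* and *Fgfr2* stayed between 0.83 and 1.04 and between 0.96 and 1.21 on the log2 scale in all 12 settings.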

How the data were processed

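The authors aligned single-end reads of 3 LRC and 3 non-LRC libraries to mm10 with TopHat2 2.0.13 and Bowtie2 2.2.1 and counted unambiguous reads per gene with HTSeq (versions from the submitters' processing notes). The gene annotation and strand setting are not given in the sources used here. The deposited raw counts, without normalization, were the input of every test. Deposited size-factor-normalized and rlog values were not used here.

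Tests were run in edgeR 4.0.16 under R 4.3.3, with filterByExpr (minimum count 10, minimum total count 15), TMM scaling and the quasi-likelihood test blocked by experiment (prior count 0.125), with p-values adjusted by the Benjamini-Hochberg method over 13728 genes. The paper's own tests used DESeq2 with a term for mouse of origin. The block follows that term, and deviations from the group means correlated between same-numbered libraries across genes (Pearson r of 0.197, 0.288 and 0.336). Standard errors were derived from the F statistic. Log2 CPM used a prior count of 2. Lengths and overlaps are from GENCODE vM21, and promoters from RefSeq.

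Alternatives were no block, DESeq2 1.42.0, limma-voom (limma 3.58.1), DESeq2 size factors, other filters and prior counts, each experiment left out and, added after the values were seen, thinning to the smallest total. Named genes were all members, the 2 genes with the smallest p in each other pathway list (and any with an adjusted p below 0.05), and the 5 genes most like each of *Fgfr1*, *Fgfr2* and *Fgfr3*. *Fgf4*, *Fgf6*, *Fgf8*, *Fgf21*, *Flrt2*, *Plcg1* and individual cell type markers were named after their values were seen. The members, lists and tests were chosen with earlier results of these data known.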

Additional observations from a re-analysis of the deposited data

How the results depend on the processing

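*Fgfr1*, *Fgfr2*, *Fgfr3*, *Fgfr4*, *Spry1*, *Spry4* and *Dusp6* kept their direction under every alternative run, and both receptor ratios moved by less than 1 s.d. under every alternative run. The number of members called (0 in the edgeR fit with the block) was 5 with DESeq2, 6 with limma-voom, 4 with at least 10 counts in every library (*Fgf18* was then not tested), 2 with no filter, 1 with DESeq2 size factors and 1 after thinning all libraries to the smallest total. The shares of all genes called in these settings were, in that order, 12.3%, 9.91%, 6.75%, 1.44%, 1.46% and 1.67%, against 1.28% in the edgeR fit with the block. Beside the same shares, the 44 tested genes of the other pathway lists (0 called) had 3 called with DESeq2 (*Etv1*, *Etv5* and *Shc1*). They had 1 with limma-voom (*Etv5*) and 1 with at least 10 counts in every library (*Etv1*). Over all genes, the 166 differentially expressed genes (at least 2-fold different, with an adjusted p below 0.05) became 799 with DESeq2, 621 with limma-voom and 434 with at least 10 counts in every library. Leaving out each experiment in turn gave 35 (without experiment 1) to 555 (without experiment 2) such genes, 0 to 4 members called and 0 to 1 other pathway genes called. It also turned the sign of *Fgf2* (from -0.14 to 0.67 on the log2 scale), *Fgf18* (-0.20 to 2.40) and *Spry2* (-0.15 to 0.67), and limma-voom turned that of *Spry2* (-0.17). None of these reversed values was called. The cause of these changes was not tested.

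Without the replicate block, which ignores the pairing of the libraries by experiment, 1 gene in all was differentially expressed, and 0 members and 0 other pathway genes were called. The smallest adjusted p among the members was then 0.172, for *Spry1* (edgeR). Thinning all libraries to the smallest total left the value of *Fgf18*, the member with the fewest counts in a library (4), at 1.11 on the log2 scale (adjusted p = 0.674, edgeR). With 1 LRC and 1 non-LRC library in each of the 3 experiments, these p-values cannot separate biological from technical spread.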
